A study of Mus musculus with 24 samples.

Results

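The Ly6 family transcripts Ly6a, Ly6c1, Ly6c2, Ly6e and Ly6i were followed in 24 RNA-sequencing libraries of sorted blood monocytes. The 5 genes were taken by their names from a table of 53715 genes. Ly6 proteins are small surface proteins with a three-finger fold, held in the membrane by a glycosylphosphatidylinositol (GPI) anchor. The Ly6C antigen, by which mouse blood monocytes are divided into Ly6Chi (classical) and Ly6Clo (patrolling) cells, is the product of the neighbouring genes Ly6c1 and Ly6c2. Ly6a encodes the stem cell antigen Sca-1, Ly6e encodes a broadly expressed member known for its role in virus entry, Ly6i is a close relative of Ly6a, and several members of the family are inducible by interferon.

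All mice were on a C57BL/6 background, were 8 to 10 weeks old and carried the Cx3cr1-GFP reporter used for sorting. In N2ΔMy mice, Notch2 lox/lox was recombined by Cre under the Lyz2 promoter, which is active in myeloid cells, and wt mice were littermate controls without this deletion. Mice received 50 mg of Aldara cream a day, which holds 5% imiquimod (IMQ), or Sham cream on depilated skin for 4 to 5 days, and cells were sorted from peripheral blood (PB). The labels name Sham cream, whereas the RNA methods of the study name untreated controls, so whether the libraries called Sham here came from mice given that cream is not certain. Ly6Chi cells of each genotype were collected after Sham and after IMQ, and Ly6Clo cells of each genotype after IMQ only, which gave 6 groups of 4 libraries. The sort gate itself required high Ly6C with no CD43, or low to absent Ly6C, so a difference in Ly6c1 or Ly6c2 between Ly6Clo and Ly6Chi cells was set by the gate and is given as a description.

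The values were normalized counts that had been rounded to whole numbers, and a value refers to 1 library. The Notch2 transcript, the targeted gene, was at 7240 to 11518 in the 12 N2ΔMy libraries and at 12656 to 20005 in the 12 wt libraries, without overlap. The values count all exons of the gene, so transcript of a recombined allele may still be included. Replicates 1 and 2 and replicates 3 and 4 of each group carried library numbers of separate ranges, called here the first and the second library series. Reads on genes, inferred from the steps of the normalized values, ranged from 14579088 to 19759716 in the first series and from 9522586 to 15593914 in the second.

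Ly6c1 and Ly6c2 are shown first at the level of sequence, since reads of 75 bases had to be told apart between them. Ly6c2 lies on chromosome 15 (GRCm38.p6) at chr15:75108158-75111970 and Ly6c1 at chr15:75044018-75048830, both on the minus strand. The first 75 bases of the coding sequences, from the ATG on, are given as in GENCODE M21, with the bases that differ in capitals.
Ly6c1: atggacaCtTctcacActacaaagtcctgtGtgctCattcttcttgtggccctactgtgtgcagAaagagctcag
Ly6c2: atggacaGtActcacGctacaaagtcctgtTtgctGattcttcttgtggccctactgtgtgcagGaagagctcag
Both coding sequences had 396 bases and 9 of them differed (97.7% identity). Counted from 1 at the A of the ATG, with the Ly6c1 base first, the differences were C8G, T10A, A16G, G31T, C36G, A65G, G254A, T327C and G376A. The longest stretch without a difference was 188 bases, which is longer than a read. Of the 75-base windows of the annotated transcripts, 259 of 2737 of Ly6c2 (9.46%) were also found in Ly6c1, while 336 of 1764 of Ly6c1 (19.0%) were found in another gene, 259 of them in Ly6c2 and 77 in Ly6a. A read from these windows cannot be placed in 1 gene, and how such reads were counted is not given in the sources used here, so that values of Ly6c1, the lower of the pair, are uncertain. The other members were less alike. Ly6a and Ly6i had 86.4% identical bases in their coding sequences, Ly6a and Ly6c2 81.7%, and Ly6e was between 45.1% and 49.6% identical to each of the others. None of the 4384 windows of Ly6e was found in another gene, and 6 of 1156 of Ly6i and 83 of 1311 of Ly6a were.

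The 5 genes lie within one cluster on chromosome 15. Ly6e (chr15:74955051-74959905, plus strand), Ly6i (chr15:74979534-74983430, minus strand) and Ly6a (chr15:74994877-74998031, minus strand) precede Ly6c1 and Ly6c2, and no member overlapped another annotated gene. Ly6g, the neutrophil antigen gene of the same cluster, did not exceed 1 in any library.

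The levels of the members spanned more than 3 orders of magnitude. Normalized to exon length, the wt Ly6Chi Sham group had a mean of 3874 normalized counts per kb for Ly6e, 1809 for Ly6c2, 91.0 for Ly6i, 20.5 for Ly6a and 2.09 for Ly6c1 (n = 4 libraries each). In wt Ly6Clo cells after IMQ this order changed, with 2545 per kb for Ly6e, 63.1 for Ly6i, 53.9 for Ly6a, 14.7 for Ly6c2 and 0 for Ly6c1. Fewer cells with a transcript and less transcript per cell cannot be told apart in such bulk libraries.

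**Figure D1:**
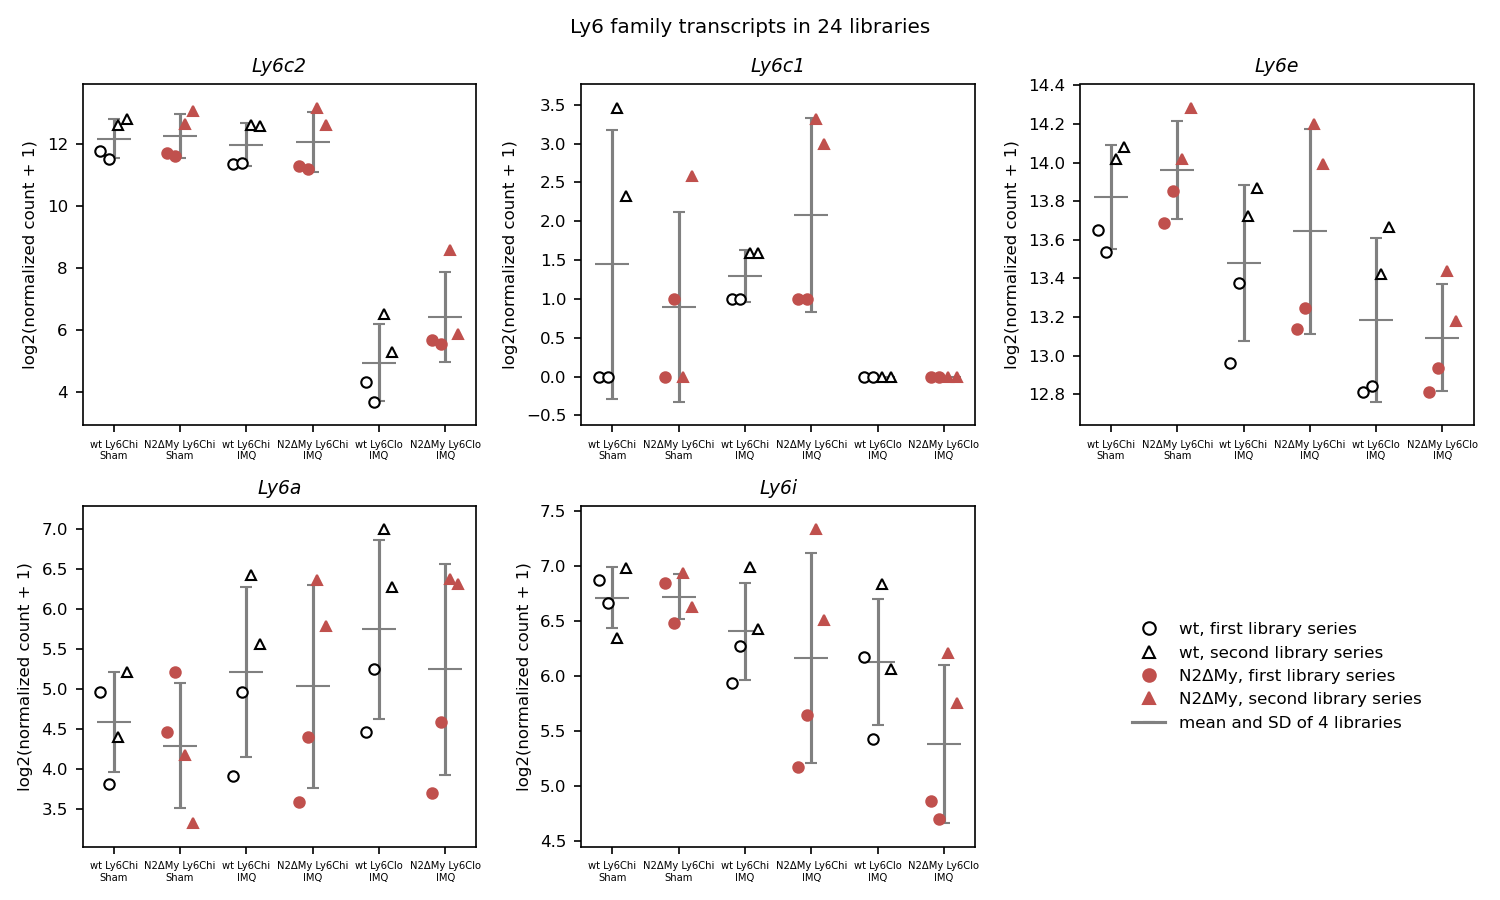
Value of each member in the 24 libraries, as log2(normalized count + 1), in 6 groups of 4. Open symbols are wt and filled symbols N2ΔMy, circles the first and triangles the second library series, and bars are the mean and SD. Ly6c2 falls from 2370 or more normalized counts in each Ly6Chi library to 382 or less in each Ly6Clo library, while the ranges of Ly6e, Ly6a and Ly6i overlap between neighbouring groups.

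Ly6c2, which held nearly all of the counted Ly6C transcript in these cells, was abundant in every Ly6Chi group. The 4 wt Ly6Chi Sham libraries (replicates 1 to 4 in order) had 3500, 2906, 6209 and 7215 normalized counts, and the N2ΔMy Ly6Chi Sham libraries had 3358, 3168, 6403 and 8619. After IMQ, wt Ly6Chi libraries had 2615, 2686, 6233 and 6065, and N2ΔMy Ly6Chi libraries 2509, 2370, 9161 and 6302. Replicates 3 and 4 were higher than replicates 1 and 2 in each of these groups, and the 4 groups overlapped. In the Ly6Clo gate, wt libraries had 19, 12, 92 and 38 normalized counts, and N2ΔMy libraries 51, 46, 382 and 58. All 8 Ly6Clo values were below all 16 Ly6Chi values, and 1 N2ΔMy library (382) stood above the other 3 of its group.

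Ly6c1 was near the limit of detection. It was at 0 in 12 of 24 libraries, including all 8 Ly6Clo libraries, and its highest value was 10, in the third wt Ly6Chi Sham library. N2ΔMy Ly6Chi IMQ libraries had 1, 1, 9 and 7 normalized counts and wt Ly6Chi IMQ libraries 1, 1, 2 and 2. These values overlapped between genotypes. Of the summed Ly6c1 and Ly6c2 values, Ly6c1 made up 0.0706% in wt and 0.0278% in N2ΔMy Ly6Chi cells after Sham, and 0.0341% in wt and 0.0884% in N2ΔMy Ly6Chi cells after IMQ. The Sham shares each rest mainly on 1 library, with Ly6c1 at 0, 0, 10 and 4 in wt and 0, 1, 0 and 5 in N2ΔMy. Ly6c1 did not pass the filter on low values (at least 50 in at least 1 library) and was not tested across genes, so that 4 of the 5 members were tested among 11230 genes.

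The Ly6Clo and Ly6Chi cells were compared after IMQ, which asks how much of the transcript of the sorting antigen and its relatives remained in the Ly6Clo gate. Ly6c2 averaged 40.2 ± 36.2 (SD, n = 4) in wt Ly6Clo and 4400 ± 2021 (SD, n = 4) in wt Ly6Chi cells, which is -7.02 on the log2 scale (SE 0.54; limma with Benjamini-Hochberg adjusted p = 4.25e-06). In N2ΔMy cells it averaged 134 ± 165 against 5086 ± 3271 (SD, n = 4), which is -5.64 (SE 0.65; limma adjusted p = 9.81e-05). The ranges did not overlap for Ly6c2 in either genotype, as they did not for 35.4% of genes in wt and 27.8% in N2ΔMy cells. Of 11230 genes tested, 24.6% were called in wt and 17.4% in N2ΔMy cells (adjusted p of at most 0.05 and at least 0.6 on the log2 scale), against 1 of the 4 tested members in each, the gated gene. In the classical monocyte list, fixed without any Ly6 gene, 10 of 10 genes were called lower in Ly6Clo cells of both genotypes, and of the patrolling list 9 of 10 were called higher in both. The patrolling list holds Spn, the gene of CD43, which the Ly6Chi gate excluded, so that gene is not independent of the gate. Of all genes, 12.7% were called lower and 11.9% higher in wt, and 8.38% lower and 9.01% higher in N2ΔMy Ly6Clo cells.

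The other members differed far less between the subsets than Ly6c2. Ly6e had 7975, 10615, 13524 and 14945 normalized counts in wt Ly6Chi IMQ and 7190, 7357, 10987 and 12986 in wt Ly6Clo libraries. In N2ΔMy cells it had 9009, 9736, 18823 and 16323 in Ly6Chi IMQ and 7192, 7843, 11116 and 9286 in Ly6Clo libraries. The Ly6Clo library was the lower of the same number in 4 of 4 cases in each genotype, but the ranges overlapped. On the log2 scale Ly6e differed by -0.30 in wt (SE 0.23; limma adjusted p = 0.357) and by -0.55 in N2ΔMy cells (SE 0.24; limma adjusted p = 0.113), and neither was called. With replicate numbers as blocks, the limma adjusted p of Ly6e was 0.00607 in wt and 0.00333 in N2ΔMy cells, with both differences below the fold required for a call. In that blocked fit of N2ΔMy cells it was called without number 1 (-0.63, limma adjusted p = 0.00411) and without number 2 (-0.63, limma adjusted p = 0.00335), and not without number 3 or 4. In N2ΔMy cells it was called in the second library series alone (-0.79, limma adjusted p = 0.00177) and without Ly6Chi IMQ replicate 1 (-0.72, limma adjusted p = 0.0447).

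Ly6i, with a fraction of the level of Ly6e, had 60, 76, 126 and 85 normalized counts in wt Ly6Chi IMQ and 71, 42, 113 and 66 in wt Ly6Clo libraries. In N2ΔMy cells it had 35, 49, 160 and 90 in Ly6Chi IMQ and 28, 25, 73 and 53 in Ly6Clo libraries. These ranges overlapped in both genotypes, and in N2ΔMy cells the Ly6Clo library was lower in 4 of 4 numbers. Ly6i differed by -0.78 in N2ΔMy cells (SE 0.49; limma adjusted p = 0.281), and by -1.11 to -0.39 over single libraries left out. With the replicate block its limma adjusted p was 0.0405, which gave 2 members called where 20.5% of genes were. This call was lost without number 2, 3 or 4 (limma adjusted p = 0.0883, 0.161 and 0.122). In wt cells the difference was -0.28 (limma adjusted p = 0.546).

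Ly6a was the member with the higher mean in Ly6Clo cells. It had 14, 30, 85 and 46 normalized counts in wt Ly6Chi IMQ and 21, 37, 126 and 76 in wt Ly6Clo libraries. The N2ΔMy libraries had 11, 20, 81 and 54 in Ly6Chi IMQ and 12, 23, 82 and 78 in Ly6Clo cells. The Ly6Clo library was the higher one in 4 of 4 numbers in both genotypes, and the ranges overlapped widely. Ly6a differed by 0.53 in wt (SE 0.62; limma adjusted p = 0.546) and by 0.21 in N2ΔMy cells (SE 0.73; limma adjusted p = 0.868), and neither was called with the block.

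**Figure D2:**
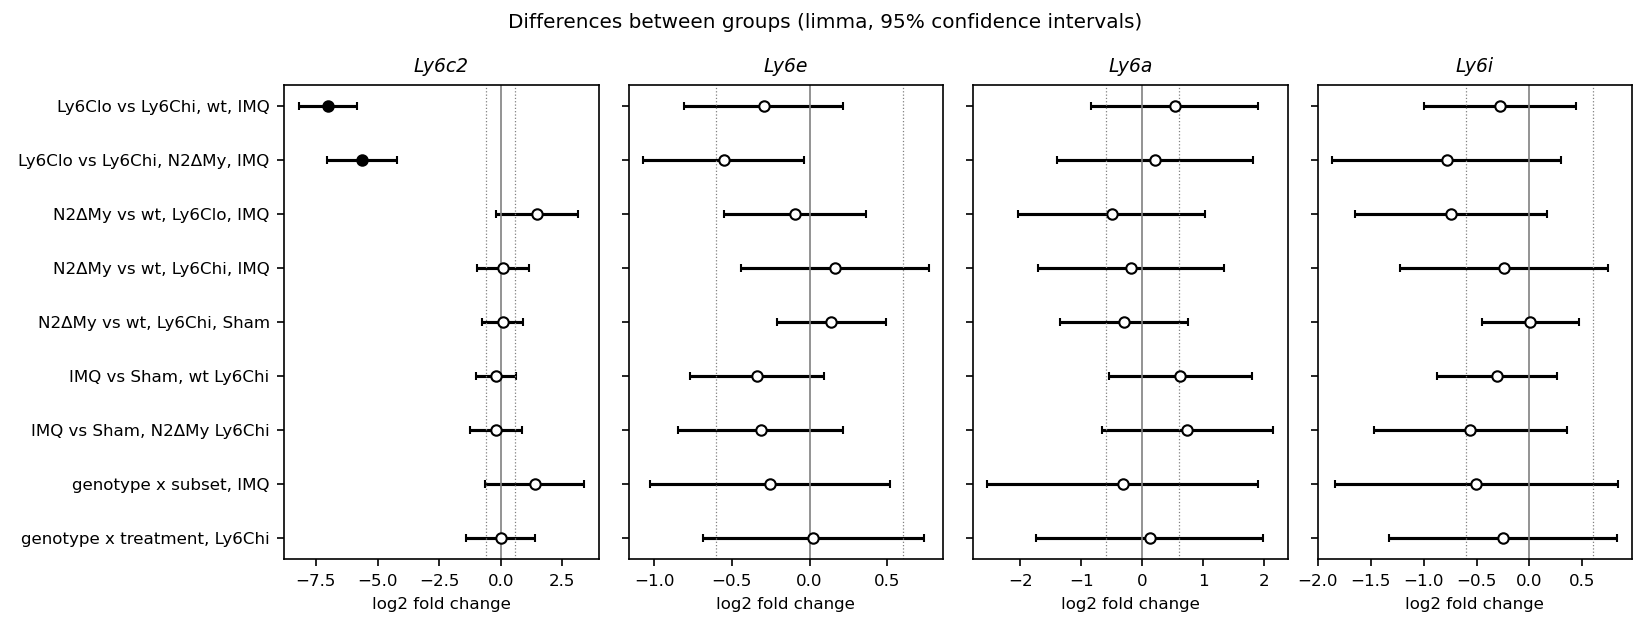
Log2 fold changes of the 4 tested members in the 7 comparisons of 2 groups and the 2 interactions, with 95% confidence intervals (limma). Filled points were called, open points were not, dotted lines mark 0.6 on the log2 scale, and the panels have axes of their own. The 2 filled points are Ly6c2 in Ly6Clo against Ly6Chi cells, at -7.02 and -5.64.

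The effect of Notch2 deletion was then examined in the Ly6Clo gate. Ly6c2 was higher in the N2ΔMy library of the same number in 4 of 4 cases, with a mean of 134 against 40.2 normalized counts and a difference of 1.47 on the log2 scale (SE 0.75). The groups overlapped, since the wt replicate 3 (92) exceeded 3 of the N2ΔMy libraries, and Ly6c2 was not called (limma adjusted p = 0.319; exact permutation test, two-sided, p = 0.2). Without the N2ΔMy library at 382 the difference was 0.75 (limma adjusted p = 0.588). No member was called, where 4.78% of genes were. Once replicate numbers were entered as blocks, Ly6c2 passed (limma adjusted p = 0.0076), as did 8.36% of genes. This call was kept when each number in turn was left out of both groups, with the lowest difference (1.28, limma adjusted p = 0.0481) without number 3, which holds the library that stood apart, and the highest (1.76, limma adjusted p = 0.00488) without number 4. With the library series as a covariate in place of the number the adjusted p was 0.0752 (limma). The log2 fold change was 1.62 in the first and 1.32 in the second series alone (limma adjusted p = 0.08 and 0.526, with 2 libraries a group).

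Ly6c2 in the Ly6Clo gate was also set against the Ly6Chi library of the same number, genotype and treatment. In wt mice 0.727%, 0.447%, 1.48% and 0.627% of the Ly6Chi value was left, and in N2ΔMy mice 2.03%, 1.94%, 4.17% and 0.920%. The share was higher in N2ΔMy in 4 of 4 numbers, while the ranges overlapped because the wt replicate 3 (1.48%) exceeded the N2ΔMy replicate 4. The means were 0.819% ± 0.453 and 2.27% ± 1.37 (SD, n = 4), and an exact two-sided permutation test on the log2 values gave p = 0.0571. The matching interaction of genotype and subset was 1.38 for Ly6c2 (limma adjusted p = 0.898), with 1.03% of genes called and no member among them. Over single libraries left out it ranged from 0.66, without the N2ΔMy Ly6Clo library at 382, to 1.90, without wt Ly6Clo replicate 3. With the replicate block its limma adjusted p was 0.0734, where 2.41% of genes were called. In that blocked fit it was called without number 3 (1.34, limma adjusted p = 0.026) and without number 4 (1.65, limma adjusted p = 0.0376), but not without number 1 or 2 (limma adjusted p = 0.33 and 0.362). Without a block, Ly6c2 was called in the first library series alone (1.74, limma adjusted p = 0.0135) but not in the second (limma adjusted p = 0.845).

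**Figure D3:**
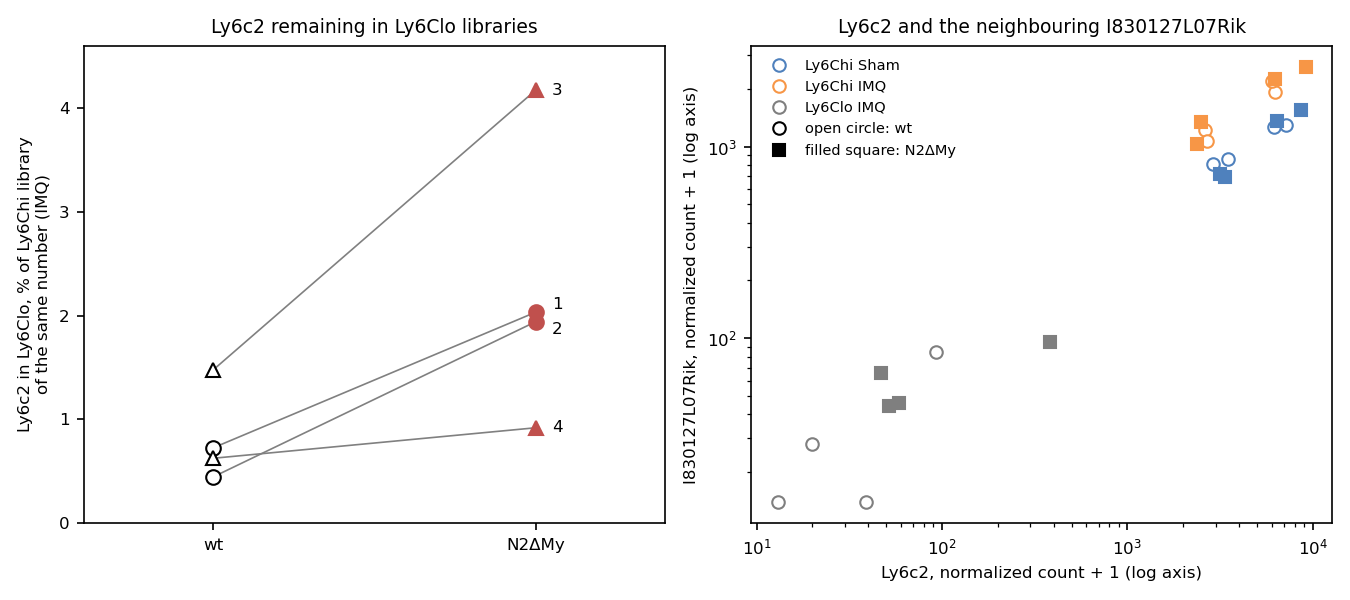
Left, Ly6c2 in each Ly6Clo library as a percentage of the Ly6Chi IMQ library of the same number, with lines joining wt and N2ΔMy of 1 number (circles, first library series; triangles, second). All 4 lines rise, from between 0.447% and 1.48% to between 0.920% and 4.17%. Right, Ly6c2 against the neighbouring I830127L07Rik in 24 libraries, both as normalized count + 1 on log axes, where the 8 Ly6Clo libraries lie apart from the 16 Ly6Chi libraries.

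Markers of the classical subset moved in the same direction in the same libraries. Of the 10 genes on the classical list, 7 were called higher in N2ΔMy than wt Ly6Clo cells, as were 3.12% of all genes tested. Ccr2, the receptor for monocyte egress, was at 589 ± 315 in wt and 5708 ± 897 in N2ΔMy (SD, n = 4), and Vcan, which encodes the matrix proteoglycan versican, at 104 ± 38.6 and 1424 ± 525. The sum of the list ranged from 9772 to 14054 in wt and from 46522 to 82682 in N2ΔMy Ly6Clo libraries, without overlap, and the N2ΔMy library with 382 normalized counts of Ly6c2 had the lowest of these N2ΔMy sums. Of 10 patrolling markers, 6 were called lower in N2ΔMy Ly6Clo cells, as were 1.67% of all genes. How far other cells in the Ly6Clo gate account for the Ly6c2 values was not tested.

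The other members did not pass the test between genotypes in Ly6Clo cells. Ly6i was lower in N2ΔMy in 4 of 4 numbers, with means of 44.8 against 73.0 and a difference of -0.74 on the log2 scale (SE 0.41; limma adjusted p = 0.362), and was not called with the replicate block either (limma adjusted p = 0.0923). Ly6e differed by -0.09 (SE 0.21; limma adjusted p = 0.875) and Ly6a by -0.50 (SE 0.69; limma adjusted p = 0.772).

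In Ly6Chi cells no difference between genotypes was called for a member. After IMQ, the log2 fold changes of the 4 tested members lay between -0.24 (Ly6i) and 0.16 (Ly6e), and 0.0267% of genes were called. After Sham they lay between -0.30 (Ly6a) and 0.14 (Ly6e), and 0.0178% of genes were called. For Ly6c2 the 95% confidence interval reached from -0.96 to 1.15 after IMQ and from -0.74 to 0.92 after Sham, in the fit without the block. With the replicate block the interval was from -0.13 to 0.32 after IMQ and from -0.042 to 0.22 after Sham, again with no call (limma adjusted p = 0.712 and 0.564). For Ly6e the interval after Sham, without the block, was from -0.21 to 0.49.

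IMQ and Sham were compared in Ly6Chi cells of each genotype. Ly6e had 12845, 11889, 16587 and 17317 normalized counts in wt Sham libraries and was lower after IMQ in 4 of 4 numbers, with a difference of -0.34 (SE 0.20; limma adjusted p = 0.284). In N2ΔMy mice it had 13213, 14796, 16582 and 19937 after Sham and was lower after IMQ in 3 of 4 numbers (-0.32, SE 0.24; limma adjusted p = 0.443). Both pairs of ranges overlapped. With the replicate block the difference in wt cells had an adjusted p of 0.0154 (limma) and remained below the fold required.

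None of the 4 tested members was called in either genotype, where 9.49% of genes were called in wt and 8.7% in N2ΔMy cells. Of the list of 26 interferon-stimulated genes, which holds no Ly6 gene, 22 were called lower after IMQ in wt and 22 in N2ΔMy Ly6Chi cells, with medians of -1.61 and -1.66 on the log2 scale, against 5.07% and 4.55% of all genes called lower. Among them, Isg15, a ubiquitin-like protein, fell from 351 ± 68.4 to 89.2 ± 44.1 (SD, n = 4) in wt cells, and Bst2, which encodes the GPI-anchored restriction factor tetherin, from 506 ± 79.6 to 171 ± 40.9. Ly6e, at -0.34 and -0.32, was not called. Ly6c2 differed by -0.19 in both genotypes (limma adjusted p = 0.779 and 0.843).

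Ly6a had the largest positive differences with IMQ. It had 30, 13, 20 and 36 normalized counts in wt Sham and 21, 36, 17 and 9 in N2ΔMy Sham libraries, against means of 43.8 and 41.5 after IMQ. Its differences were 0.62 in wt (SE 0.53) and 0.74 in N2ΔMy cells (SE 0.63) on the log2 scale (limma adjusted p = 0.493 and 0.504). Ly6a passed the filter on low values through 7 libraries, all of them from IMQ mice and the second series, while no Sham library exceeded 36. In the first series alone Ly6a differed by 0.05 in wt and by -0.85 in N2ΔMy cells, and in the second series alone by 1.19 and by 2.32, the last of which was past the threshold (limma adjusted p = 0.0349, with 2 libraries a group). Since those libraries also let the gene into the test, the second-series values are given as a description. For the same reason no test of its treatment effect between the series is given, a comparison over the 16 Ly6Chi libraries in which 0.0089% of all genes and none of Ly6c2, Ly6e and Ly6i were called.

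Ly6i had 116, 100, 80 and 125 normalized counts in wt Sham and 114, 88, 121 and 98 in N2ΔMy Sham libraries. After IMQ its mean was 86.8 in wt and 83.5 in N2ΔMy cells, with log2 fold changes of -0.31 and -0.56 (limma adjusted p = 0.478 and 0.434). In N2ΔMy cells the difference was -1.25 in the first series alone and 0.14 in the second. Genes listed as markers of other cells also moved with treatment in the same Ly6Chi libraries, although the sort had left out cells with lineage antigens such as Ly6G. They are given as sums because the 3 tested neutrophil genes passed the filter only through IMQ libraries. The sum of 9 neutrophil genes was 5 to 64 after Sham and 941 to 5234 after IMQ, nearly all of it from S100a8 and S100a9, while Ly6g stayed at 0 or 1. The sum of 6 dendritic cell genes, mainly Flt3 and Bst2, was 918 to 1534 after Sham and 399 to 694 after IMQ, and Bst2 is also the interferon-stimulated gene described above. The sum of 6 natural killer (NK) cell genes, mainly the receptor gene Klrk1, was 174 to 256 after Sham and 5 to 69 after IMQ. None of these 3 sums overlapped between the treatments, and the share of all genes without overlap is not given for this comparison. Whether these counts came from other cells or from the monocytes themselves was not tested, nor was the part of such cells in the member values. The interaction of genotype and treatment lay between -0.25 and 0.12 for the 4 tested members, with 0 of 11230 genes called by limma (0.0% of genes) and 177 at an unadjusted p under 0.05.

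Values of the members were also compared between the library series. For Ly6c2 and Ly6e, both libraries of the second series were above both libraries of the first in 6 of 6 groups, which 6.06% of the tested genes also were. The same held in 4 groups for Ly6a and in 3 for Ly6i. Over 24 libraries, with the group in the model, the second series exceeded the first by 1.44 ± 0.19 for Ly6c2, by 1.16 ± 0.31 for Ly6a, by 0.66 ± 0.18 for Ly6i and by 0.59 ± 0.06 for Ly6e on the log2 scale (SE; limma, adjusted p = 1.80e-06, 0.00421, 0.00385 and 3.54e-08). Thus Ly6c2 and Ly6i were called, with Ly6e just below the fold required, where 8.99% of genes were called. Ly6a also passed both thresholds, but it had entered the test only through second-series libraries, with no first-series value above 37, so its direction was in part set by the filter and is not counted. This comparison was added after the values had been seen. Of the 5 hemoglobin and heme genes of the erythroid list, the 4 hemoglobin genes were called higher in the second series, as were 5.9% of all genes, with a list median of 2.82 on the log2 scale. The sum of the list varied widely within each series. In the 4 IMQ groups it was 0 to 16 in replicates 1 and 2, 0 to 92 in replicate 3 and 753 to 1543 in replicate 4. Replicates 1 to 4 had 330, 6, 372 and 13 in wt Sham and 129, 0, 308 and 96 in N2ΔMy Sham cells. The inferred reads were fewer on average in the second series, but the ranges overlapped. The part of either in the difference was not tested.

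**Figure D4:**
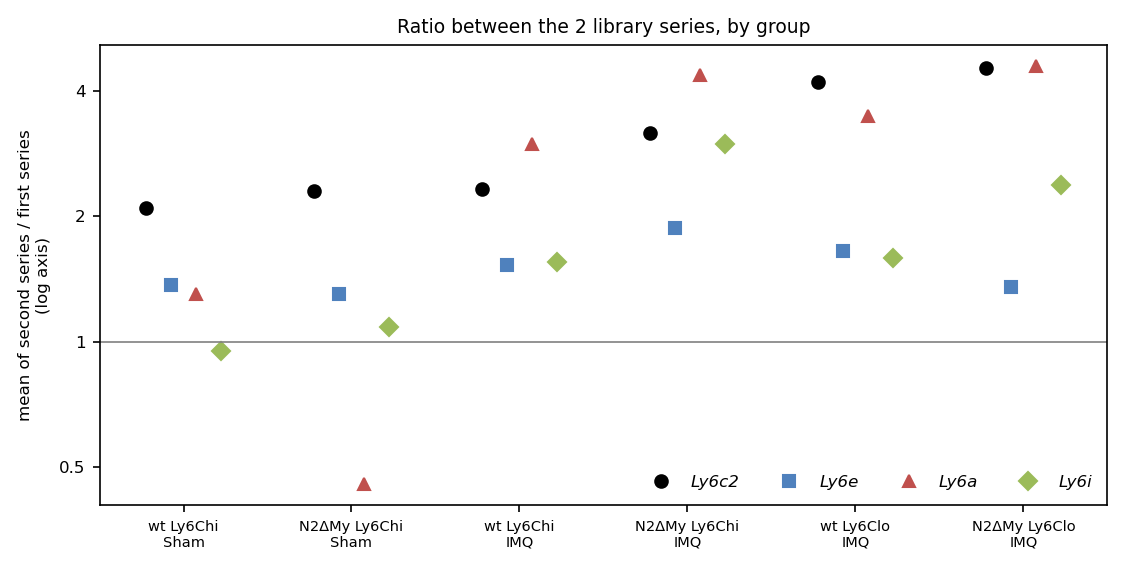
Mean of the second library series divided by the mean of the first (2 libraries each, log axis), for each group and tested member. Ly6c2 lies between 2.10 and 4.54 and Ly6e between 1.30 and 1.87 in all 6 groups, while Ly6a lies between 0.456 and 4.57 and Ly6i between 0.949 and 2.98, with their lowest values in Sham groups.

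The members were compared with each other over the 24 libraries, as a description. Pearson's r of log2 values was 0.78 for Ly6e and Ly6i, 0.75 for Ly6c2 and Ly6e, and -0.19 for Ly6a and Ly6c2. After the mean of each group was removed, all 6 pairs of tested members lay between 0.62 and 0.83. After the mean of group and series was removed, they lay between 0.07 and 0.56, with Ly6c2 and Ly6i the closest pair. The libraries of 1 series share that series, so these values are not independent.

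Genes whose log2 values followed a member most closely were looked for among 8375 genes with a mean of at least 100. For Ly6c2 these included Iqgap2, which encodes a cytoskeletal scaffold protein (r = 0.984), Stx3, a syntaxin (r = 0.981), the neighbouring I830127L07Rik (r = 0.978) and Sntb1, a syntrophin (r = 0.978). For Ly6e they were the proteasome activator subunits Psme2 (r = 0.954) and Psme1 (r = 0.952), Slfn1 (r = 0.948), the transferrin gene Trf (r = 0.935) and the cathepsin gene Ctsh (r = 0.933). The closest genes to Ly6i, led by Itm2c (r = 0.821), and to Ly6a, led by Gabarapl2 (r = 0.770), followed them less closely. The 24 libraries include the subsets that the gate separated by Ly6C, which the values for Ly6c2 share.

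I830127L07Rik, annotated as a transcribed pseudogene at chr15:75131377-75135128 on the minus strand, was the other abundant family transcript of the cluster. It had 856, 812, 1271 and 1303 normalized counts in wt Ly6Chi Sham libraries and between 695 and 1553 in N2ΔMy Ly6Chi Sham libraries. After IMQ it had 1225, 1071, 1932 and 2202 in wt and 1344, 1035, 2596 and 2256 in N2ΔMy Ly6Chi libraries. In Ly6Clo cells it had 27, 13, 84 and 13 in wt and 43, 65, 95 and 45 in N2ΔMy libraries, all below all Ly6Chi values. Its log2 fold change between Ly6Clo and Ly6Chi cells was -5.88 in wt and -4.82 in N2ΔMy (limma adjusted p = 9.50e-06 and 2.09e-06), and it was called in both. Between genotypes in Ly6Clo cells it differed by 1.20 (limma adjusted p = 0.276). None of its 804 windows of 75 bases was shared with Ly6c2, and 10 were shared with another gene.

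Of 45 further genes of the Ly6 and urokinase receptor family, 40 were in the table, 20 of these were at 0 in each library and 3 passed the filter on low values. These were I830127L07Rik, Plaur, the urokinase receptor, and Lynx1, a modulator of nicotinic receptors. Plaur had group means between 1582 and 2116 normalized counts and was not called in any of the comparisons. Lynx1 was called lower after IMQ in N2ΔMy Ly6Chi cells, from 71.0 ± 21.8 to 26.5 ± 6.14 (SD, n = 4; log2 fold change -1.36, limma adjusted p = 0.013), and not in wt cells. The difference between the genotypes was not called for Lynx1, as for every other gene in the interaction of genotype and treatment. The highest value of the untested family genes in any library was 27.

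The GPI anchor that all members share is built by a pathway of which 22 of 26 listed genes were tested. Of these, 1 was called higher and 1 lower between the subsets in each genotype, while 24.6% of all genes were called in wt and 17.4% in N2ΔMy cells. Pgap1, which remodels the anchor after its transfer to protein, was the lower one in both (log2 fold change -1.16 in wt and -1.22 in N2ΔMy; limma, adjusted p = 0.000139 and 0.000374). Gpaa1, a subunit of the transamidase, was called higher in wt (0.62, limma adjusted p = 0.0105), and Pgap2 in N2ΔMy Ly6Clo cells (0.85, limma adjusted p = 0.00235). No gene of the list was called between genotypes in any of the 3 comparisons. Of all genes, 4.78% were called between genotypes in Ly6Clo cells, and 0.0267% and 0.0178% in Ly6Chi cells after IMQ and after Sham. With IMQ in wt Ly6Chi cells, Pigx (0.66) and Pigo (0.66) were called higher and Pgap1 (-0.76) lower on the log2 scale (limma adjusted p = 0.0106, 0.039 and 0.0205), where 9.49% of all genes were called. None was called in N2ΔMy cells, where 8.7% of all genes were.

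The promoters of Ly6c1 and Ly6c2 are shown because the genes, so alike in coding sequence, differed by more than 100 times in level in Ly6Chi cells. The 250 bases before the start are from RefSeq (GRCm38.p6), chr15:75048838-75049087 for Ly6c1 and chr15:75111972-75112221 for Ly6c2, on the minus strand and read 5′ to 3′. Capitals mark matches to the motifs named below them.
Ly6c1: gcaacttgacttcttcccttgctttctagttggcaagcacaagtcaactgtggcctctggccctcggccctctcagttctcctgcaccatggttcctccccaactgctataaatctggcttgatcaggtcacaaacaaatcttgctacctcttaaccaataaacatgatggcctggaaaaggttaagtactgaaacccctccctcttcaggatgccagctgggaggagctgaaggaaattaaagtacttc
Ly6c2: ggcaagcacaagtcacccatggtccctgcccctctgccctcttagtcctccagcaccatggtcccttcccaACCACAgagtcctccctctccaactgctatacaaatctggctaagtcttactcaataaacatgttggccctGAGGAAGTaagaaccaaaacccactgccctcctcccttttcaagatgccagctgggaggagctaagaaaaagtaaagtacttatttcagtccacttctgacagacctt
Aligned over 250 bases before and 50 after the start, the windows were 62.3% identical. The motif letters searched on both strands were GAGGAAGT for PU.1, TGTGGT for RUNX, TTGCNNAA for C/EBP and TTCNNNGAA for the interferon gamma-activated site (GAS), and the interferon-stimulated response element (ISRE) was searched as well. Ly6c2 held the PU.1 letters at 108 bases before and again at 26 bases after the start, which lies outside the printed stretch, and the RUNX letters on the reverse strand at 179 bases before it. Of 32851 promoters of the same length, 3.20% held the PU.1 letters and 16.8% the RUNX letters. Ly6c1 held no match to any of the 5, and the C/EBP, ISRE and GAS motifs, present in 10.8%, 3.44% and 8.30% of promoters, matched in neither. A match of letters is a description and not a bound site, and no RefSeq promoter was used for Ly6a, Ly6e and Ly6i.

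The ratio of Ly6c2 to Ly6c1 was compared between groups with a pseudocount of 1. Between Ly6Clo and Ly6Chi cells it differed by -5.73 in wt and by -3.56 in N2ΔMy on the log2 scale. These 2 values are a description, because the gate set the fall of Ly6c2 and because Ly6c1 was at 0 in all 8 Ly6Clo libraries, where the ratio carries no information on Ly6c1. For N2ΔMy against wt Ly6Chi after IMQ (-0.70) and IMQ against Sham in N2ΔMy (-1.38), an exact two-sided permutation test gave an adjusted p of 0.05 over 7 comparisons. Both were at the smallest possible p of that test (0.0286). Their adjusted p also depends on the 2 gate-set ratios being at the same p, so these calls are not independent of the gate. The size of these ratios depends on the pseudocount, because Ly6c1 was between 0 and 10. With a pseudocount of 0.1 they were -0.88 and -2.80, and neither was called (exact permutation test, adjusted p = 0.1 and 0.267). The unadjusted p of the first stayed at 0.0286, and that of the second rose to 0.114. Both calls were also lost without any one of the 4 N2ΔMy Ly6Chi IMQ libraries, and the first of them without wt Ly6Chi IMQ replicate 3 or 4. The differences kept their direction without those N2ΔMy libraries, at -0.80 to -0.57 for the first and -1.48 to -1.25 for the second.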

How the data were processed

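RNA of sorted PB monocytes was sequenced as single 75-base reads from total RNA libraries. Per the labels and the methods of the study, the authors trimmed reads with Trim Galore 0.4.4, aligned them with STAR 2.5.3a to GRCm38.p6 (GENCODE M17) and deposited DESeq2-normalized counts rounded to whole numbers, treated here as a score and not as raw counts. The counting tool, its strand setting and the treatment of reads that match several genes are not given in the sources used here. Library sums were 13273500 to 14651800. The table also held 5 columns of the authors' own comparison, which were not used.

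The members and gene lists were chosen with earlier results of these data known. Values were tested as log2(value + 1) with limma 3.58.1 (R 4.3.3, trend), 4 against 4 libraries without a block, on the 11230 of 53715 genes with at least 50 in at least 1 library. Calls required p no higher than 0.05 after Benjamini-Hochberg adjustment and a log2 fold change of at least 0.6 in size, and fold changes of low genes are understated by the pseudocount. Exact permutation tests used the 70 splits of 8 libraries (smallest p = 0.0286). The labels do not tie each library to an animal, so p-values measure the spread between libraries, which may in part be technical. In simulated data, the comparison of genotypes in Ly6Clo cells recovered 200 of 200 changed genes among 10370 without the block and 198 of 200 among 10378 with it. The interaction of genotype and subset recovered fewer, 179 of 200 among 10348 genes without the block (85 of 106 at a log2 change of 1) and 191 of 200 among 10376 with it. The simulated counts held no library series and varied less between libraries than Ly6c2 did in Ly6Clo cells. There its SD was 90.0% of the mean in wt and 123% in N2ΔMy mice. The shares recovered thus do not show how often a change in a member would be found.

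Same-numbered libraries deviated together in every pair of groups compared (correlation 0.160 to 0.619), and less so once the series means were removed (-0.116 to 0.263). This was taken as pairing, although the labels name no pairs, and a fit with the replicate number as block is given where it changes a call. For IMQ against Sham the correlations within a series lay between -0.116 and 0.0936, so same-numbered libraries were hardly alike there beyond their series. Alternatives were another scaling (TMM), filter, pseudocount or floor, no trend, all libraries in 1 fit, the series as covariate, each series alone and each library left out.

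Named genes were the 5 members, Notch2, the other family genes that passed the filter, the 5 genes most alike in log2 values to each tested member and up to 4 called genes of each list. One gene that this rule names is not reported here. Over all libraries, the summed markers of T cells did not exceed 29, of endothelial cells 46, of NK cells 256 and of platelets 273. Those of dendritic cells ranged from 150 to 1714 and those of B cells from 808 to 3872, the latter mainly from Ighm. Sequences were read from GENCODE M21 transcripts and the RefSeq promoter table, and shared windows were counted among all annotated transcripts.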

Additional observations from a re-analysis of the deposited data

Results flagged for a closer look

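Ly6c2 in the third N2ΔMy Ly6Clo library, at 382 normalized counts, stood far above the other 3 libraries of its group (46, 51 and 58). The gap to the next library was 0.964 of the whole range of the group, above Dixon's 95% critical value for 4 libraries. It was the only one flagged of 30 pairs of group and member examined, and chance alone flags about 1 in 20 such groups. Without this library, the difference between N2ΔMy and wt Ly6Clo cells was 0.75 on the log2 scale (limma adjusted p = 0.588), against 1.47 with it. The wt library of the same number was also the highest of its group, at 92, and the same-numbered Ly6Chi library was the highest of the N2ΔMy IMQ group, at 9161. The N2ΔMy library did not have the highest sum of classical markers in its group (46522, the lowest of the 4).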

How the results depend on the processing

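All values are log2 differences. The number of members called stayed the same under another scaling, filter, pseudocount or floor, without the trend and with all libraries in 1 fit. Between Ly6Clo and Ly6Chi cells of N2ΔMy mice it was 2 with the replicate block (Ly6i), with the series as covariate (Ly6i), in the second series alone (Ly6e) and without Ly6Chi IMQ replicate 1 (Ly6e), and the range over single libraries left out was 1 to 2. Of all 11230 genes, 20.5% were called with that block, and 1184 were called higher and 1176 lower with the covariate. In the second series alone 1312 were called higher and 1169 lower, and without that replicate 976 and 880. The number of members called was 1 for N2ΔMy against wt Ly6Clo cells with the replicate block (Ly6c2), 1 for IMQ against Sham in N2ΔMy cells in the second series alone (Ly6a, which passed the filter only through second-series IMQ libraries) and 1 for the interaction of genotype and subset in the first series alone (Ly6c2). Of all genes, 8.36% were called in the first of these, 441 higher and 372 lower in the second, and 124 higher and 10 lower in the third. The block changed no other call of a member.

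In the first series alone the sign reversed for Ly6e between genotypes in Ly6Clo cells (0.046), Ly6c2 between genotypes in Ly6Chi cells after IMQ (-0.12), Ly6a (0.45) and Ly6i (-0.10) between genotypes after Sham, Ly6a with IMQ in N2ΔMy cells (-0.85) and Ly6e in the interaction of genotype and subset (0.021). In the second series alone it reversed between genotypes in Ly6Chi cells after IMQ for Ly6a (0.079) and Ly6i (0.21), with IMQ for Ly6i in wt (0.049) and N2ΔMy cells (0.14), and with IMQ for Ly6c2 in N2ΔMy cells (0.033). The cause was not tested, and none of these was called except where named above.

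Leaving out 1 library turned the sign of 35 differences of single members, none of them called, while 252 kept their sign and their call. Ly6a then ranged from -0.27 to 0.73 between the subsets of N2ΔMy mice, from -0.93 to 0.014 between genotypes in Ly6Clo cells, from -0.62 to 0.30 in Ly6Chi cells after IMQ, from -0.61 to 0.022 after Sham, and from -0.80 to 0.20 in the interaction of genotype and subset. Ly6c2 ranged from -0.27 to 0.38 between genotypes in Ly6Chi cells after IMQ, from -0.18 to 0.31 after Sham, and with IMQ from -0.42 to 0.020 in wt and from -0.56 to 0.093 in N2ΔMy cells. Ly6e ranged from -0.22 to 0.066 between genotypes in Ly6Clo cells and from -0.021 to 0.33 in Ly6Chi cells after IMQ. Ly6i ranged from -0.63 to 0.091 between genotypes after IMQ and from -0.11 to 0.10 after Sham.

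The 4 ratios of Ly6c2 to Ly6c1 at an adjusted p of 0.05, 2 of them between subsets and so a description, lost this with a pseudocount of 0.1. Within 1 series, where 2 libraries stand against 2, no call was possible (smallest exact permutation p 0.333), and the values are given only for their size. With single libraries left out, 16 were kept and 16 lost. The lost ones were the 3 that use N2ΔMy Ly6Chi IMQ cells, without any one of those 4 libraries, and the wt Ly6Clo against Ly6Chi and genotype comparisons, without wt Ly6Chi IMQ replicate 3 or 4. For Ly6Clo against Ly6Chi cells in wt, the ratio differed by -3.15 with a pseudocount of 0.1, by -6.36 and -5.09 in the first and second series alone, and by -6.25 to -5.30 over single libraries left out. In N2ΔMy these were -0.77, -4.62, -2.50, and -4.28 to -3.27. Between genotypes in Ly6Chi cells after IMQ they were -0.88, -0.12, -1.27, and -0.81 to -0.57. For IMQ against Sham in N2ΔMy cells they were -2.80, -0.92, -1.84, and -1.67 to -0.95. A paired sign-flip permutation test, with the replicate block, gave the same differences of -5.73, -3.56, -0.70 and -1.38, for which its smallest possible p is 0.125. Of the uncalled ratios, that between genotypes after Sham turned to -0.47 in the first series alone and that for IMQ in wt cells to 1.18 in the second, the latter with a range from -0.57 to 0.31 over single libraries left out. With 4 libraries a group and Ly6c1 at 10 or less, depth limits what the ratio can show.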
